A study of Mus musculus with 3 samples.

Results

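Conventional CD4 T cells were picked out of the CD45+ cells of mouse melanoma by their transcript counts, and 95 of the 43730 deposited cells met every limit. A cell was kept with at least 3 counts of Cd3d, Cd3e and Cd3g together, at least 1 count of Cd4, no Foxp3, at most 1 count of Ikzf2, no Cd8a or Cd8b1, fewer than 10 counts of C1qa, C1qb and C1qc together, and at most 1 count of Ncr1 and Klrb1c together. These counts chose the cells, so the levels of those 13 genes are given only as a description. The library of 4-month-old mice held 41 of the cells, that of 12-month-old mice 31 and that of 20-month-old mice 23. The cells came from grafts of YUMM1.7, a mouse melanoma cell line driven by mutant Braf. Under the skin of 7 mice of each age 500000 cells were injected, and the grafts were taken 18 days later. Living cells (DAPI-negative) that carried CD45, stained with an antibody to its CD45.2 form, were sorted from the digested tissue and made into 1 library per age by PIP-seq, which partitions cells with capture beads in an emulsion and reads the 3' ends of polyadenylated RNA of single cells. All mice carried the same graft and none is labelled as treated. Strain, sex and whether the 7 mice were pooled are not given there.

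Conventional CD4 T cells, the helper cells, recognise peptides on MHC class II and act mainly through what they show and secrete. CD40 ligand and other members of the TNF family license dendritic cells and B cells, and cytokines such as interferon gamma, interleukin 2 and GM-CSF drive CD8 T cells and myeloid cells. They differ from regulatory T cells, which carry the factor Foxp3 and restrain immune responses, and from CD8 T cells, which kill through granzymes and perforin. Those that meet antigen switch on helper ligands, cytokines and costimulatory receptors of the TNF receptor family.

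The 95 cells were shallow among their libraries. They held a median of 4656, 5632 and 5321 counts at 4, 12 and 20 months, against 6789, 7411 and 6936 over all cells of the libraries, and summed to 212859, 186999 and 131640 counts. With 1 library per age there is no replicate, so no difference between ages was tested; intervals cover counting error only, at the 95% level. Levels are counts of a gene scaled to 1000000 counts (CPM) of the summed cells of a library, and are compared only within a gene. Against other T cells the comparison was made within each library, over 3 pairs of sums, with edgeR's quasi-likelihood test and the library as a block. The test pools the spread over genes, so a p-value can be smaller than the spread of that gene over these 3 libraries would give. The libraries also differ in age. The compared classes were 124 regulatory T cells (the same limits but at least 1 Foxp3 and any Ikzf2, 65, 36 and 23 per library) and 15019 CD8 T cells (at least 2 counts of Cd8a and Cd8b1 together and no Cd4, 3817, 5485 and 5717). Ikzf2 was thus limited in the gated cells alone, and not in either compared class. Of the cell barcodes, 7, 5 and 6 per library also occurred in another library, 0 of them among the 95 cells. Among the 6% of cells of a library scored highest as doublets (2 cells in 1 droplet) were 7, 3 and 2 of the gated cells.

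The limits on Cd4 and on Cd8a and Cd8b1 removed most of the cells. Of cells with at least 3 Cd3 counts, the limit on Cd4 left 750 of 8548 at 4 months, 1244 of 12489 at 12 months and 955 of 11376 at 20 months. Among cells that passed the limits on Cd3, Cd4, Foxp3 and Ikzf2, the limit on Cd8 left 70 of 321 at 4 months, 52 of 727 at 12 months and 38 of 557 at 20 months. Cd8 counts were also found in cells of other types. Only 22.8% (21.0 to 24.7), 6.51% (5.51 to 7.62) and 9.46% (8.45 to 10.5) of macrophages (at least 20 C1q counts) had a sum of 0. So did 26.8% (21.9 to 32.2), 10.8% (7.66 to 14.7) and 14.4% (9.68 to 20.2) of T cells with 2 or more Foxp3 counts, with exact binomial intervals. In both cell types a sum of 0 was more common at 4 months than at the later ages. Just outside the limit, with a Cd8 sum of 1 and all other limits met, lay 37, 46 and 28 cells, and with a sum of 2 another 34, 46 and 37. Just outside the limit on Ikzf2, with 2 counts, lay 11, 1 and 2 cells. At the other limit, Cd4 stood at exactly 1 count in 58 of the 95 cells (27, 18 and 13) and at 2 in 23, and the highest counts were 13, 6 and 3 in the 3 libraries.

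Single Cd4 counts also occurred in other lymphocytes. Of CD8 T cells with at least 8 Cd8 counts, 2.60% (2.09 to 3.19), 5.63% (5.00 to 6.31) and 4.31% (3.76 to 4.91) carried at least 1 Cd4 count, and of NK cells 2.85%, 2.81% and 4.12%. T cells with 2 or more Foxp3 counts, which are CD4 T cells by descent, carried one in 51.7%, 49.5% and 54.3%. The cells that met every other limit fell on both sides of this contrast, by the summed counts of Trac, Trbc1 and Trbc2, the constant parts of the alpha-beta T cell receptor. With a receptor sum of at least 10, 31 of 113, 23 of 80 and 14 of 43 cells carried Cd4 (27.4%, 28.8% and 32.6%). With a lower sum, only 10 of 270, 8 of 131 and 9 of 172 did (3.70%, 6.11% and 5.23%), close to the shares in CD8 T and NK cells.

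By their receptor counts the 95 cells were of 2 kinds, 68 with the counts of T cells and 27 with few. The 68 cells with a receptor sum of at least 10 (31, 23 and 14 per library) had a median sum of 27.5, from 11 to 57, and at most 9 counts of Lyz2, the lysozyme of monocytes and macrophages. The other 27 cells (10, 8 and 9) had a median receptor sum of 3, from 0 to 9, and a median of 22 Lyz2 counts, from 1 to 278. Of these, 15 carried 20 or more Lyz2 counts, against the label, and 12 carried fewer, 1 of them among the activated cells described further on. The receptor sum does not tell conventional from regulatory cells, and single cells of the 68 were rich in genes that regulatory T cells also carry. At 4 months 1 of them held 63 counts of Tnfrsf4 and 18 of Ctla4, and at 12 months another held 26 and 29 with 5 of Il10. The 10 monocyte and macrophage markers summed to 13283, 17251 and 6471 CPM in the 27 cells, to 1455, 1499 and 1804 CPM in the 68 cells and to 16473, 17662 and 19967 CPM in macrophages. At 20 months the 27 cells also held 8444 CPM of the 4 neutrophil markers, with Retnlg at 0, against 26.5 CPM in the 68. The helper genes Cd40lg, Csf2, Ccl1 and Izumo1r were counted in none of the 27 cells, which allows each a share of up to 11.1% of them. Other helper genes, Tnfsf8, Cd200, Penk and Tnfsf11, were counted in some of the 27, with 35 counts of Cd200 in 1 cell at 12 months and 3 of Tnfsf8 in 1 cell at 4 months. Melanoma and fibroblast markers were at or near 0 in the gate, with 1 count of Pmel at 12 months, and the 5 B and plasma cell markers summed to 0, 10.7 and 7.60 CPM, with Cd79a and Jchain at 0. Results are therefore given for the 95 cells and, where they differ, for the 68. The limit of 10 was chosen after the counts had been seen. Zbtb7b, the ThPOK factor of the CD4 lineage, was too low to tell classes apart (2 counts in each library), and Zbtb16, the factor of NKT cells, was at 0 in all 3.

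**Figure D1:**
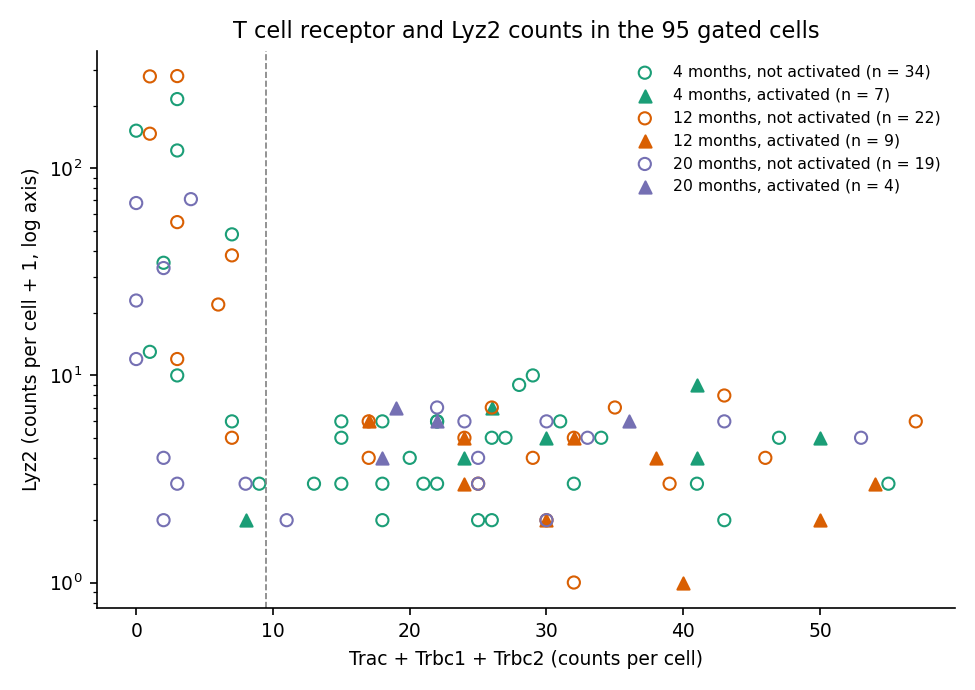
Each point is 1 of the 95 gated cells, with its summed T cell receptor counts (horizontal) and its Lyz2 count plus 1 (vertical, log axis), coloured by library; filled triangles are the activated cells and the dashed line marks a sum of 10. All cells with 20 or more Lyz2 counts lie left of the line, and 19 of the 20 activated cells lie right of it.

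The share of gated cells among T cells (at least 3 Cd3 counts and under 10 C1q counts) was lower in both older libraries. It was 0.545% (41 of 7524, interval 0.391 to 0.739) at 4 months, 0.300% (31 of 10348, 0.204 to 0.425) at 12 months and 0.264% (23 of 8722, 0.167 to 0.395) at 20 months. The differences from 4 months were -0.245 percentage points (-0.461 to -0.0471) and -0.281 (-0.498 to -0.0789). With at least 2 Cd4 counts they were -0.0604 (-0.199 to 0.0622) and -0.0714 (-0.211 to 0.0564), within counting error. The shares of macrophages and of cells with Foxp3 that had no Cd8 count were lower in these libraries too, as given above, and their part in the difference was not tested. A wider gate was chosen after the counts had been seen, with a receptor sum of at least 10, at least 2 counts of Cd4, at most 3 of Cd8 and at most 2 of Ncr1 and Klrb1c. It held 145 cells (41, 70 and 34), of which 34 were among the 95. Its shares were 0.736% (0.529 to 0.997), 0.886% (0.691 to 1.12) and 0.523% (0.363 to 0.731) of T cells with that receptor sum. The 12-month share was thus above the 4-month share by 0.150 points (-0.176 to 0.461), and the 20-month share differed from it by -0.213 points (-0.519 to 0.0806), both within counting error. In sorted cells of a digested tumour, fewer cells of a type and less RNA per cell cannot be told apart by such a gate.

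Helper ligands of the TNF family were higher in the gated cells than in CD8 T cells. Cd40lg, the ligand through which helper cells license dendritic and B cells, was at 75.2, 58.8 and 38.0 CPM at 4, 12 and 20 months against 6.62, 6.71 and 3.95 CPM in CD8 T cells. The log2 difference was 3.11, SE 0.53, adjusted p = 1.43e-06. It was counted in 16 of 95 cells (16.8%; 11.6% with each cell thinned to 3500 counts), in 3.29% of CD8 T cells and in 2.04% of macrophages, which are deeper. All 3 libraries had it above both other classes, with regulatory T cells at 8.88, 4.85 and 0 CPM. Against those it was too low to test over the 95 cells, and in the wider gate it was higher (4.18, adjusted p = 1.21e-07). Tnfsf11, which encodes RANKL, a ligand for dendritic cells and osteoclast precursors, was at 23.5, 64.2 and 30.4 CPM against 2.82, 3.02 and 2.18 CPM in CD8 T cells, from 5, 12 and 4 counts. The log2 difference was 3.61, SE 0.73, adjusted p = 0.000168. It was counted in 15 of 95 gated cells (15.8%, thinned 12.6%), against 1.59% of CD8 T cells and 1.20% of macrophages. Together 26 cells carried 1 or both of these 2 ligands. At counts this low, whether the 2 ligands belong to the same cells cannot be told. Tnfsf8, the CD30 ligand, was at 75.2, 187 and 137 CPM in the gated cells, 20.7, 29.1 and 21.9 CPM in regulatory and 38.9, 40.0 and 43.2 CPM in CD8 T cells. Macrophages held 85.1, 67.4 and 54.8 CPM of Tnfsf8, above the gated cells at 4 months. Tnfsf8 is 1 of 5 genes put forward as markers of the gated cells from these same libraries (with Cd4, Csf2, Penk and Cd200), so their differences are given as a description. In the 68 cells of high receptor sum the 3 ligands stood higher still, with Cd40lg at 101, 85.4 and 66.3 CPM, Tnfsf11 at 31.6, 93.2 and 39.8 CPM and Tnfsf8 at 75.9, 264 and 239 CPM. Of all 16590 genes tested, 0.597% were called higher and 0.808% lower than in CD8 T cells at an adjusted p under 0.05, and in the 68 cells 0.515% and 0.798% of 15530. Of the 11 TNF family ligands listed and tested, 3 were called higher (these 3) and 1 lower, with a median log2 difference of 0.73 beside -0.19 over all genes. The lower one was Fasl, the death ligand, at 136, 171 and 76.0 CPM against 201, 191 and 170.2 CPM. Fasl no longer passed in the 68 cells (-0.62, adjusted p = 0.224), but was called lower in the wider gate. In the wider gate, where 1.99% and 3.48% of 15901 genes were called higher and lower, Cd40lg and Tnfsf11 were higher by 3.85 and 4.58. On GRCm38, Cd40lg lies at chrX:57212143-57224042 (+), Tnfsf11 at chr14:78277445-78308043 (-) and Tnfsf8 at chr4:63831308-63861347 (-); reads were counted per gene, at the 3' end of its transcripts.

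**Figure D2:**
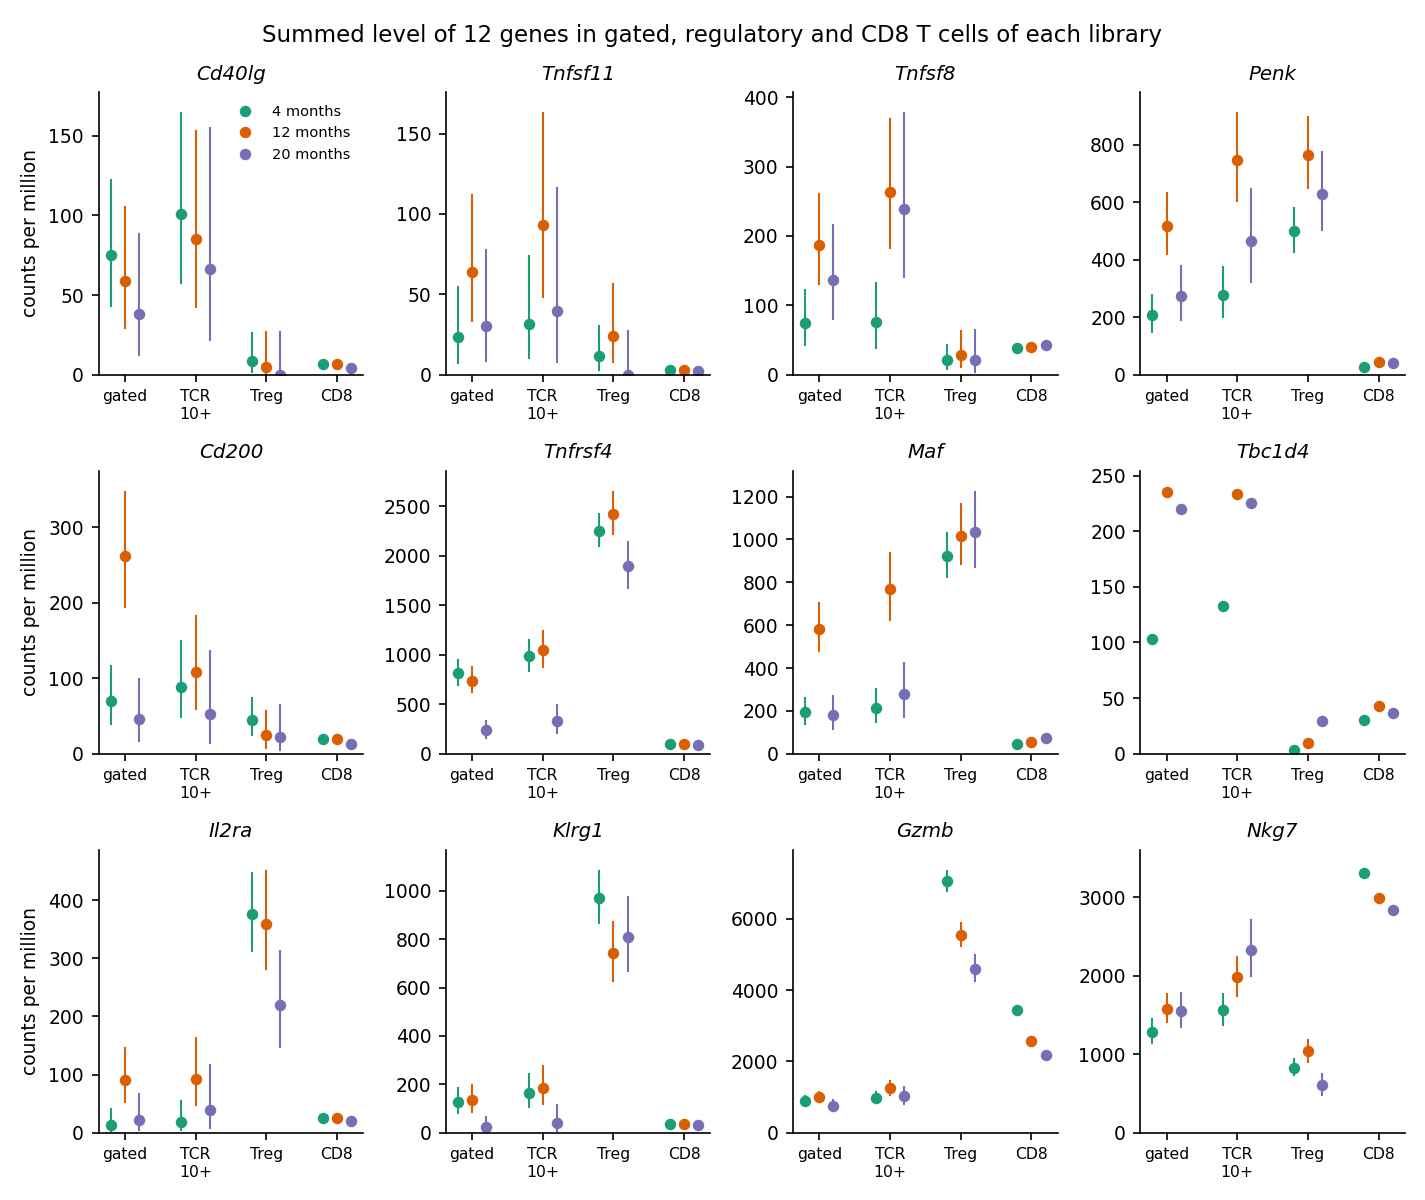
Levels of 12 genes (CPM of the summed cells, axes from 0) in the gated cells, those with a T cell receptor sum of at least 10 (TCR 10+), regulatory (Treg) and CD8 T cells, by library. Bars are exact Poisson intervals of the counts (none drawn for Tbc1d4). Cd40lg and Tnfsf8 are higher in the gated cells than in regulatory and CD8 T cells in every library, while Il2ra, Klrg1 and Gzmb are highest in regulatory T cells.

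Secreted products were held by few cells each. Penk, which encodes the opioid precursor proenkephalin, was at 207, 519 and 273 CPM in the gated cells and 26.2, 45.0 and 40.5 CPM in CD8 T cells, a log2 difference of 2.92, but at 500.0, 766 and 628 CPM in regulatory T cells. It was counted in 27 cells, and the 2 highest cells of each library held 63.6%, 72.2% and 80.6% of its counts. Csf2, which encodes the myeloid growth factor GM-CSF, gave 34, 63 and 2 counts (159.7, 337 and 15.2 CPM) against 6.94, 9.83 and 4.99 CPM in CD8 T cells, and 2 cells held 33 of the 34 and 59 of the 63 counts. Ccl1, a chemokine that draws CCR8-bearing cells, gave 1, 254 and 36 counts, with 247 of the 254 in 2 cells. The level of these genes in a library was thus mostly that of 1 or 2 cells. At 20 months Csf2 was counted once in each of 2 cells. Csf2 (chr11:54247271-54249667) and Penk (chr4:4133531-4138819) each overlap a gene on the opposite strand (Gm12223 and A830012C17Rik), and whether strand was used in counting is not given in the sources used here. Areg, the growth factor amphiregulin, was at 61.1, 96.3 and 15.2 CPM against 9.60, 11.2 and 9.45 CPM in CD8 T cells (log2 difference 2.31, SE 0.43, adjusted p = 3.16e-05). It was lower than in regulatory T cells, which held 355, 276 and 649.5 CPM (-2.61, SE 0.38, adjusted p = 0.000326, and with DESeq2 0.0605).

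Ifng, the type 1 helper cytokine, was at 84.6, 791 and 114 CPM in the gated cells, 101, 72.7 and 14.6 CPM in regulatory and 299, 219 and 143 CPM in CD8 T cells. Of the 3 libraries the 12-month one stood above its CD8 T cells, with counts in 17 of its 31 cells, and the difference from CD8 T cells did not pass (log2 0.06, SE 0.20, adjusted p = 0.982). Ifng was called higher in the wider gate than in CD8 T cells (0.68, adjusted p = 3.07e-07), again with the 4-month pair running the other way (290.1 against 354 CPM). Over the 95 cells Ifng was higher than in regulatory T cells (log2 1.95, SE 0.49, adjusted p = 0.0163), although the 4-month levels ran the other way (84.6 against 101 CPM). Il2, the T cell growth factor, was counted in 19 of 95 cells (20.0%), beside 19.7% of CD8 T cells and 21.2% of macrophages. Il10, a suppressive cytokine, was counted in 33 of 95 (34.7%), beside 32.0% of macrophages. The Il2 share was close to those of both other classes. For Il10, macrophages are deeper and whether their counts are background was not tested, so its share cannot be placed against a background. Il21, the cytokine of follicular helper cells, had all its 16 counts in 1 cell at 12 months, and Il4 was counted in 1 cell. Il3, Il5, Il9, Il13, Il17a, Il17f and Il22 were counted in 0 of 95 cells, which allows each a share of up to 3.16% of cells with a count. Of the 17 helper cytokines listed, 9 could be tested against CD8 T cells. Of these, 3 were called higher (Penk, Areg and Csf2, of which Penk and Csf2 were already named as markers) and none lower, with a median of 0.52 beside -0.19 for all genes. Of 10 tested in the wider gate 8 were called higher and none lower (median 1.15), with Ifng, Il2 (0.97, adjusted p = 0.000991), Il21, Tnf and Lta besides these 3.

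Several receptors and regulators of helper cells were higher than in CD8 T cells, and several of these were higher still in regulatory T cells. Tnfrsf4, which encodes the costimulatory receptor OX40, was at 813, 738 and 235 CPM against 97.4, 102 and 89.9 CPM (log2 difference 2.36, SE 0.18, adjusted p = 2.19e-36). Tnfrsf18, the related receptor GITR, was at 766, 722 and 372 CPM against 248, 237 and 241 CPM (1.13, SE 0.17, adjusted p = 6.91e-09). Icos, a receptor of the CD28 family, was at 239.6, 209 and 189.9 CPM against 102, 113 and 88.5 CPM (0.87, SE 0.20, adjusted p = 0.00227). For each of these 3 genes CD8 T cells were lowest and regulatory T cells highest in all 3 libraries, Tnfrsf4 standing at 2255, 2423 and 1898 CPM in the latter. Maf, a transcription factor of follicular helper and interleukin 10 producing cells, was at 193, 583 and 182 CPM against 45.5, 54.1 and 75.8 CPM (2.20, SE 0.20, adjusted p = 1.74e-24). Izumo1r, the folate receptor 4, was at 89.3, 155 and 22.8 CPM against 14.8, 16.7 and 15.0 CPM (2.30, SE 0.35, adjusted p = 3.51e-08). Slamf6, a receptor of follicular helper and memory cells, was at 127, 53.5 and 137 CPM against 36.0, 35.0 and 34.1 CPM (1.35, SE 0.28, adjusted p = 0.000346). Cd5, a brake on the T cell receptor, was at 277, 364 and 205 CPM against 100.4, 115 and 96.3 CPM (1.24, SE 0.19, adjusted p = 5.01e-08). Cd200, a ligand that restrains myeloid cells and 1 of the markers named from these libraries, was at 70.5, 262 and 45.6 CPM against 20.1, 19.5 and 13.3 CPM. At 12 months 35 of its 49 counts lay in 1 cell of low receptor sum, and the cells of high receptor sum were at 88.5, 109 and 53.1 CPM.

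By list, 7 of the 9 tested markers of conventional CD4 T cells were higher than in CD8 T cells and none lower (median log2 2.30). Of these 7, Tnfsf8, Csf2, Penk and Cd200 had been named from these libraries, so the list is not independent evidence of its direction; Cd40lg, Izumo1r and Cd5 are the other 3. Zbtb7b and Cd28, the main costimulatory receptor, did not pass, with Cd28 at 334, 374 and 152 CPM against 214, 221 and 208 CPM. Of 11 tested follicular helper genes, 5 were higher (Icos, Slamf6, Maf, Izumo1r and Cd200) and none lower (median 0.75). Cxcr5, their homing receptor, was counted in 6 of 95 cells and Bcl6, the factor that defines follicular helper cells, in 5 of 95 (18.8, 16.0 and 0 CPM, against 17.6, 20.7 and 19.6 CPM in CD8 T cells). Of 9 tested costimulatory receptors, 3 were higher (Icos, Tnfrsf4 and Tnfrsf18) and Cd27, whose ligand is CD70, was lower (-0.77, adjusted p = 0.0286). Cd27 was not called in the 68 cells (adjusted p = 0.159) but was called lower in the wider gate. Of 13 tested genes of the regulatory T cell program, 4 were higher too (Tnfrsf4, Tnfrsf18, Klrg1 and Ebi3) and none lower (median 0.51). In the 68 cells 5 of 13 were higher and in the wider gate 8 of 13. Icos, Tnfrsf4, Tnfrsf18, Maf, Izumo1r and Cd5 were called lower in the 95 cells than in regulatory T cells. Rora and Ccr6, which belong to interleukin 17 producing helper cells among others, were the 2 of 7 tested genes of that kind that were higher (1.01, adjusted p = 0.00951 and 3.46, adjusted p = 0.00945), the latter from 4, 7 and 0 counts. Ccr6 was no longer called in the 68 cells (adjusted p = 0.0517).

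The killing genes of CD8 T cells ran the other way. Of 14 cytotoxic genes, all tested, 9 were lower in the gated cells and none higher, with a median log2 difference of -1.26. Gzmb, granzyme B, was at 902, 989 and 744 CPM against 3436, 2579.8 and 2174 CPM (-1.82, SE 0.16, adjusted p = 2.58e-26). Nkg7, a granule protein, was at 1287, 1583 and 1549.7 CPM against 3314, 2988 and 2844 CPM (-1.26, SE 0.16, adjusted p = 7.08e-13). Prf1, perforin, was at 32.9, 37.4 and 45.6 CPM against 109, 87.6 and 85.6 CPM (-1.52, SE 0.31, adjusted p = 0.000193). Nkg7 was still counted in 87 of 95 gated cells and Gzmb in 90 of 95, beside 97.8% and 97.0% of macrophages, so these shares do not stand above background. Crtam, a receptor of activated cytotoxic cells, Klrd1, an NK receptor chain, and Ccl5, a chemokine that draws T cells, were also among the 9, Crtam with a DESeq2 adjusted p of 0.150 (-2.57, adjusted p = 9.52e-05, -1.49, adjusted p = 2.26e-12 and -1.16, adjusted p = 1.04e-10). Trgc2, which is in no list and encodes a constant part of the gamma chain of the other T cell receptor type, was lower (-3.33, SE 0.39, adjusted p = 1.54e-14). Of 5 tested markers of gamma-delta T cells, Trdc, a delta chain gene, was lower (-2.15, adjusted p = 0.000487) and none higher. The CD8 class was not limited on these genes. Of the 12 largest falls by the naming rule, Trgc2 and Adgrg5, an adhesion receptor of cytotoxic lymphocytes, kept their call in all 12 alternatives, and 9 of the 12 rest on at most 3 counts in the gated cells. Genes of cell division were lower in 4 of 12 cases (Stmn1, Hmgb2, Birc5 and Rrm2, median -0.81) and genes of homing in 5 of 15 (among them Selplg, Cd69, Cxcr6 and S1pr4, median -0.35), with none higher in either list. In the 68 cells the cytotoxic, division and homing lists stood at 8 of 14, 4 of 12 and 6 of 15 lower.

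Among the largest differences outside the lists, Tbc1d4, which encodes a regulator of glucose transporter traffic, was at 103, 235 and 220.3 CPM against 30.7, 42.5 and 36.5 CPM in CD8 T cells (2.09, SE 0.23, adjusted p = 7.42e-16). Macrophages held 8.53, 56.7 and 215 CPM of it, and in the 68 cells of high receptor sum the difference was 3.34, adjusted p = 5.16e-21. Tbc1d4 (chr14:101442360-101609191) overlaps Gm34417 on its own strand, and reads of the pair may be split. Ebi3, a subunit of interleukins 27 and 35, was at 84.6, 107 and 30.4 CPM against 14.7, 16.5 and 15.4 CPM (2.07, adjusted p = 5.24e-06), and Trat1, an adaptor of the T cell receptor, was higher too (1.95, adjusted p = 0.000529). Cd9, a tetraspanin abundant in myeloid cells, was called higher over the 95 cells (1.78, adjusted p = 1.13e-11) and not in the 68 (0.96, adjusted p = 0.336). In the wider gate Cd9 was called higher again (1.99, adjusted p = 4.29e-20). S100a8 and S100a9, 2 neutrophil genes, were called higher over the 95 cells, not called in the 68, and called lower in the wider gate. With no library block, adjusted p in the same test was 0.00873 for Cd40lg, 0.00867 for Tnfrsf4 and 0.0248 for Izumo1r. It was 0.0328 for Maf and 0.109 for Trat1, so Trat1 lost its call. Across all 16590 genes, 99 were higher and 134 lower than in CD8 T cells. Without the 12-month library the counts were 57 and 63, without the 20-month library 82 and 67, and without the 4-month library 90 and 280. With DESeq2's size factors in the same test the counts were 122 higher and 69 lower, so 63.9% of calls were higher in place of 42.5%. That scaling moves the median of all genes up by 0.14, and no gene of the naming rule changed direction under it.

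**Figure D3:**
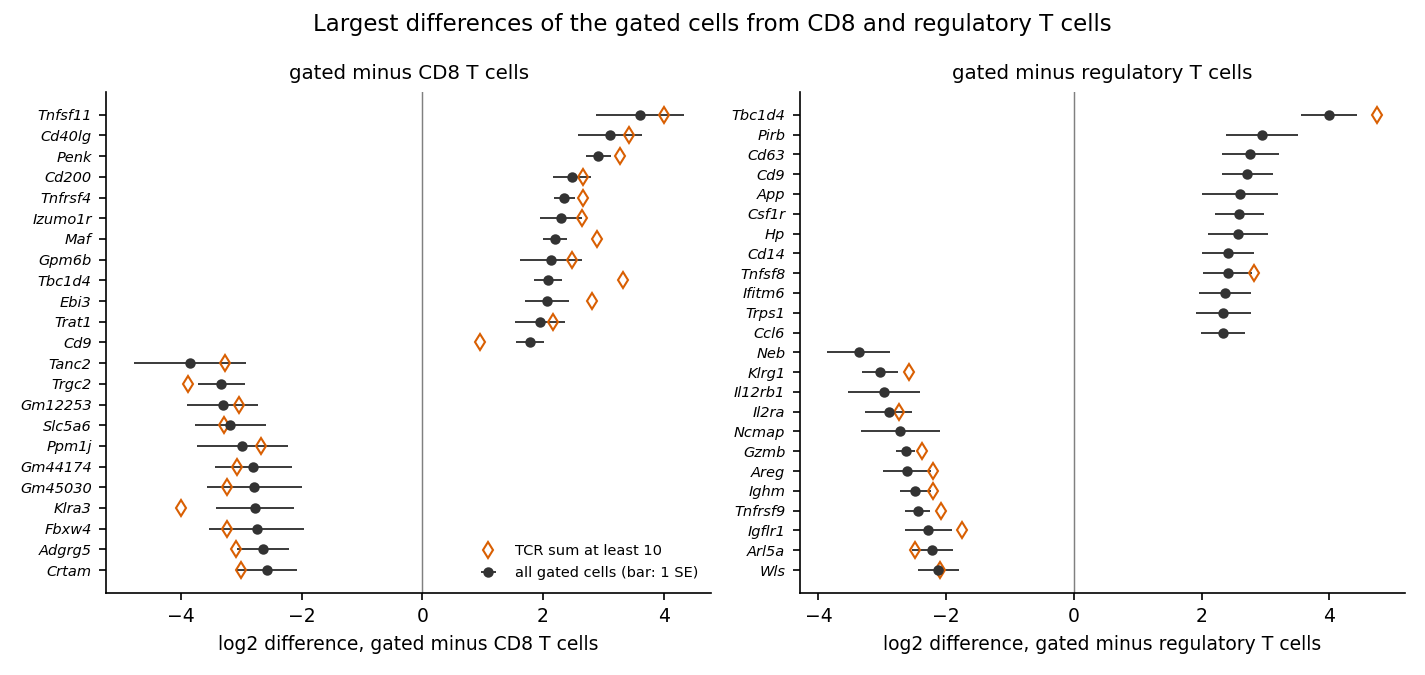
Log2 differences of the gated cells from CD8 T cells (left) and from regulatory T cells (right) for the genes with the largest called differences in each direction, leaving out 1 gene with no count in the gated cells. Black points with bars are the estimate with 1 standard error over all 95 cells; open diamonds are the same difference with a T cell receptor sum of at least 10 in both classes, absent where the gene was too low to test. On the left every diamond lies on the same side of 0 as its point, with that of Cd9 nearer 0; on the right Tbc1d4 and Tnfsf8 are the genes on the higher side with a diamond.

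Against regulatory T cells, 180 of 3268 genes were higher in the gated cells (5.51%) and 147 lower (4.5%). Most genes of the regulatory program were lower, and the helper ligand Tnfsf8 and several killing genes were higher. Of 9 tested genes of the regulatory program, 8 were lower and none higher, with a median of -1.76 beside 0.02 for all genes, and the count was the same, 8 of 9, in the 68 cells. Il2ra, the high-affinity receptor chain for interleukin 2, was at 14.1, 90.9 and 22.8 CPM against 376, 359 and 219 CPM (-2.90, SE 0.37, adjusted p = 0.000102). Klrg1, a receptor of terminally differentiated lymphocytes, was at 127, 134 and 22.8 CPM against 970.5, 741 and 810.1 CPM (-3.03, SE 0.28, adjusted p = 3.07e-06). Tnfrsf9, the costimulatory receptor CD137, was at 376, 379.7 and 189.9 CPM against 1917, 1653 and 1832 CPM (-2.45, SE 0.20, adjusted p = 1.31e-06). Ctla4, the inhibitory receptor, was at 629.5, 604 and 258 CPM against 1616, 1105 and 1729.7 CPM (-1.50, SE 0.24, adjusted p = 0.000682). Gzmb was lower than in regulatory T cells, which held 7048, 5554 and 4598 CPM (-2.64, SE 0.15, adjusted p = 6.33e-09), more than the CD8 T cells of the same libraries. Costimulatory receptors were lower in 6 of 9 cases (Icos, Tnfrsf1b, Tnfrsf9, Tnfrsf4, Tnfrsf18 and Cd27, median -1.31).

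Of 10 tested cytotoxic genes, 4 were higher than in regulatory T cells and stayed so in the 68 cells. Nkg7 was at 1287, 1583 and 1549.7 CPM against 831, 1037 and 606 CPM (0.90, SE 0.17, adjusted p = 0.0032). Ccl5 was at 1489, 4075 and 2454 CPM against 799, 1032 and 708 CPM (1.61, SE 0.19, adjusted p = 4.58e-05). Gzmk, granzyme K, was at 94.0, 112 and 189.9 CPM against 17.8, 9.69 and 73.0 CPM (2.22, SE 0.41, adjusted p = 0.00198), and Fasl was the other. Tbc1d4, the largest difference on the higher side by the naming rule, was at 103, 235 and 220.3 CPM against 2.96, 9.69 and 29.2 CPM (3.99, SE 0.44, adjusted p = 1.97e-05). Tnfsf8 came next among genes that could be tested in the 68 cells (2.41, and 2.82 in the 68), and Pdcd1, the inhibitory receptor PD-1, was at 132, 219 and 258 CPM against 82.8, 102 and 102 CPM (1.07, SE 0.25, adjusted p = 0.0106). The other 10 of the 12 largest rises (Pirb, Cd63, Cd9, App, Csf1r, Hp, Cd14, Ifitm6, Trps1 and Ccl6) include several myeloid genes and were too low to test in the 68 cells. Of these, Cd9 (2.41, adjusted p = 1.56e-06) and Trps1 (1.95, adjusted p = 0.000141) could be tested in the wider gate and were called higher there. Of the monocyte and macrophage markers, 5 of 6 tested were higher over the 95 cells and 0 of 3 in the 68. Follicular helper genes split, with Pdcd1 and Sh2d1a higher and Icos, Maf and Izumo1r lower of 7 tested. So did type 1 helper genes, with Ifng, Cxcr6 and Bhlhe40 higher and Hopx, Il12rb1 and Cxcr3 lower of 9. In the 68 cells the type 1 list stood at 3 higher and 1 lower (Hopx) of 7, and the calls over all genes at 98 and 102 of 2404 (4.08% and 4.24%). In the wider gate 294 and 263 of 3357 genes were called (8.76% and 7.83%). Over the 95 cells without the 4-month library 78 and 43 genes were called, and without the 20-month library 103 and 94.

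Lineage factors were sparse. Tbx21, the T-bet factor of type 1 helper cells, was counted in 16 of 95 cells (32.9, 48.1 and 22.8 CPM, against 52.6, 49.9 and 47.7 CPM in CD8 T cells), Gata3, the type 2 factor, in 13 of 95 and Bcl6 in 5 of 95. No type 1 list gene was higher than in CD8 T cells and 2 of 12 were lower, Cxcr6 among them. The wider gate had 3 of 12 higher (Stat4, Bhlhe40 and Ifng) and 2 lower, with Cxcr6 not called. Of the type 1 chemokine receptors, Cxcr3 was counted in 58 of 95 gated cells at 371, 251 and 258 CPM and Cxcr6 in 51 of 95 at 268, 406 and 289 CPM, beside 45.9% and 48.6% of macrophages. Of the genes of resting and memory cells, Ccr7, a receptor for homing to lymph nodes, was counted in 28 of 95 cells and Tcf7, a factor of memory cells, in 16 of 95. Ccr7 stood at 117, 235 and 106 CPM over the 95 cells and at 145, 124 and 13.3 CPM in the 68, so most of its counts at 12 and 20 months lay in cells of low receptor sum.

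Activated cells, defined by at least 2 counts of Csf2, Tnfsf8 and Ccl1 together, were 20 of the 95. They were 7 of 41 at 4 months (17.1%, 7.15 to 32.1), 9 of 31 at 12 months (29.0%, 14.2 to 48.0) and 4 of 23 at 20 months (17.4%, 4.95 to 38.8). Against the youngest mice the share was 12.0 points higher at 12 months (interval -9.11 to 33.4) and 0.318 points higher at 20 months (-19.2 to 23.9), both within counting error. With each cell thinned to 3500 counts 5, 5 and 4 cells passed. In the wider gate 11 of 41, 34 of 70 and 15 of 34 cells were activated (26.8%, 48.6% and 44.1%), 21.7 points (1.57 to 39.3) and 17.3 points (-6.09 to 39.3) above 4 months. Of the 20 cells, 19 had a receptor sum of at least 10. Just below the limit lay 9 cells with a sum of exactly 1 (4, 3 and 2), and just inside it 5 with a sum of 2 and 6 with 3, the rest having more. In 11 cells Tnfsf8 was the only 1 of the 3 genes counted, while Csf2 or Ccl1 was counted in the other 9 and both together in 6 of the 95.

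The high counts were held by single cells of different make-up. At 4 months 1 cell carried 31 counts of Csf2 with 13 of Cd4, the highest Cd4 count of all 95, and the other 6 carried 2 or 3 counts of Tnfsf8 or, in 1 case, 2 of Csf2 and 1 of Tnfsf8 with 10 of Penk. At 12 months 1 cell carried 168 counts of Ccl1, 17 of Tnfsf8, 39 of Ifng, 16 of Il21, 10 of Tnf and 5 of Cd40lg. Another carried 43 counts of Csf2 and 13 of Penk, and a further cell 79 of Ccl1, 16 of Csf2 and 24 of Ifng. At 20 months 2 cells carried Ccl1 (6 and 30 counts), 1 carried 14 of Tnfsf8 with 20 of Penk, and 1 carried 3 of Tnfsf8 with 3 of Cd200. The leading gene thus differed from cell to cell, also within a library.

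**Figure D4:**
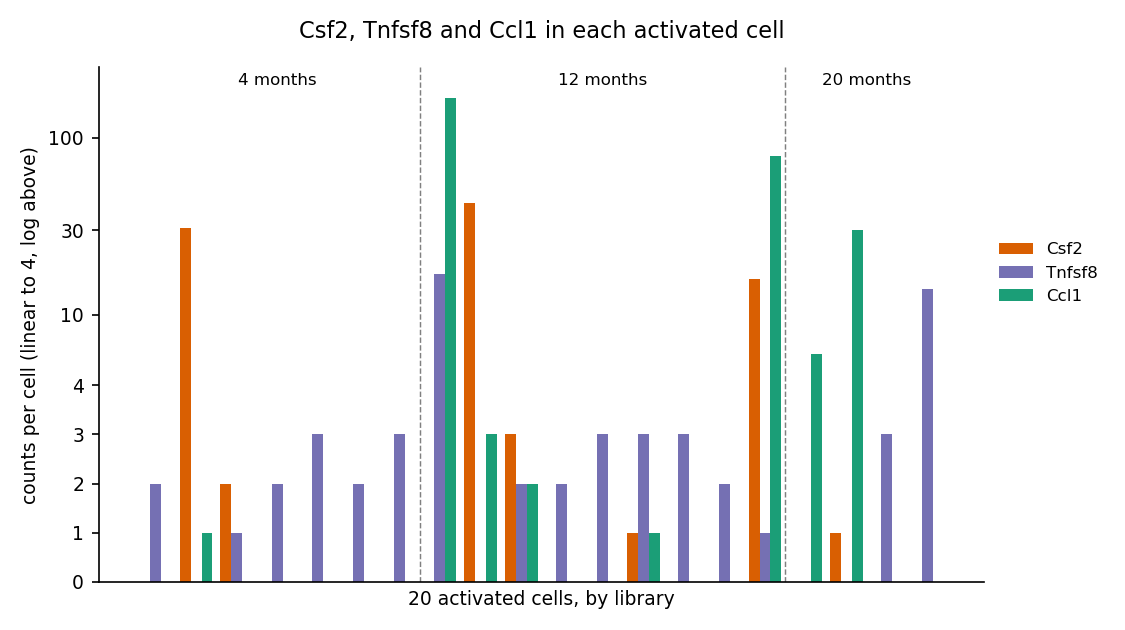
Counts of Csf2, Tnfsf8 and Ccl1 in each of the 20 activated cells (horizontal, grouped by library; vertical axis linear to 4 and logarithmic above). The 3 genes chose these cells; the bars show that most 4-month cells carry 2 or 3 counts of Tnfsf8 and that the counts above 10 belong to single cells, 168 of Ccl1 being the highest.

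Several genes of T cell activation, chosen after their values were seen, were counted in a larger share of these 20 cells than of the other 75. Tnfrsf4 was counted in 20 of 20 against 42 of 75, Pdcd1 in 15 against 26 and Cd200 in 11 against 10. Penk was counted in 10 against 17, Nr4a3, an early factor of receptor signalling, in 10 against 8, Cd40lg in 9 against 7 and Tnfsf11 in 9 against 6. Izumo1r was counted in 3 against 20. These are shares of cells pooled over libraries, given without a test, and the 75 include 26 of the 27 cells of low receptor sum. Among the 68 cells, Tnfrsf4 was counted in 19 of 19 against 34 of 49, Pdcd1 in 15 against 24, Cd200 in 11 against 7, Nr4a3 in 10 against 6 and Cd40lg in 9 against 7. In the test over 3 pairs of sums, 11 of 1438 genes were higher in the activated cells (0.765%) and 41 lower (2.85%). Nfkbia, the inhibitor of NF-kappa-B that this pathway induces, was at 3243, 1798 and 3003 CPM against 803, 1278 and 761 CPM in the others (1.43, SE 0.25, adjusted p = 0.0033). Gadd45b, a stress-response gene also induced by NF-kappa-B, was at 402, 723 and 400.4 CPM against 52.0, 263 and 62.7 CPM (2.05, SE 0.37, adjusted p = 0.00397). Rgcc, a regulator of the cell cycle, was at 176, 575 and 350.4 CPM against 69.3, 105 and 35.8 CPM (2.22, SE 0.40, adjusted p = 0.00397). Junb, an AP-1 factor, and Bhlhe40, a factor of cytokine-producing helper cells, were higher as well (0.95, adjusted p = 0.00846 and 1.22, adjusted p = 0.0151). These 5 genes were higher in the activated cells of all 3 libraries and were called in the 68 cells too. Rgcc alone of them was called in the wider gate (1.91, adjusted p = 0.0266), with Nfkbia at 0.92 and Gadd45b at 1.17 (both adjusted p = 0.0887), Junb at 0.52 (adjusted p = 0.412) and Bhlhe40 at 1.07 (adjusted p = 0.0623). Junb was the 1 early response gene called of 6 tested over the 95 cells (median -0.04). Of them, Rgcc was called in 10 of 11 alternatives, Nfkbia in 10 of 12 and Gadd45b in 9 of 11, but Junb and Bhlhe40 in only 5 of 12 each (DESeq2 adjusted p = 0.313 and 0.329). Pdcd1 (1.70, SE 0.36, adjusted p = 0.0132) was called over all cells but not in the 68 (1.11, adjusted p = 0.0758) or the wider gate (0.15, adjusted p = 0.953). Ifng was called in both (1.65, adjusted p = 0.0225 and 1.10, adjusted p = 0.0271), at 75.4, 1872 and 150.2 CPM against 86.7, 353 and 107 CPM. The 4-month pair ran the other way, and DESeq2's adjusted p was 0.856.

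Many genes lower in the activated cells were myeloid. The 12 largest falls included Alox5ap, Ccl6, Il1b, Lyz2, Fcgr3, Cst3, Ly86 and Fcer1g. In the 68 cells 9 of the 12 could not be tested, and Cst3, a protease inhibitor abundant in myeloid cells, stood at a log2 difference of 0.53. In the 68 cells 10 of 968 genes were higher (1.03%) and 13 lower (1.34%), and the lower ones included the killing genes Nkg7 and Gzmb (-1.50, adjusted p = 4.81e-07) and the chemokine Ccl5 (-1.79, adjusted p = 1.88e-19). Gzmb and Ccl5 were lower over all 95 cells too, with Ccl5 at 553, 2279.8 and 651 CPM against 1704, 4803 and 2776 CPM (-1.50, SE 0.19, adjusted p = 0.000464). Of 7 cytotoxic genes tested over the 95 cells 2 were lower and none higher, and of 13 T cell receptor signalling genes none was called in either direction (median 0.68 beside 0.01 for all genes, and 0.14 in the 68). The calls were fewer in other selections, 5 higher and 8 lower of 2187 in the wider gate (0.229% and 0.366%), which holds 60 activated cells, and 4 and 13 without the 12-month library.

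With age, 500 of 3137 genes of at least 50 CPM on average were 1.5-fold or more higher at 12 months than at 4 (15.9%) and 412 lower (13.1%); at 20 months 453 were higher (14.4%) and 600 lower (19.1%). With 23 to 41 cells per library, age and the choice of cells cannot be told apart in such ratios. In the 68 cells 18.4% and 14.8% of genes passed at 12 months and 17.2% and 21.8% at 20 months, and in the wider gate 9.59% and 9.88%, then 10.9% and 14.5%. The naming rule for age left no gene, because 10 cells of a library held at least 50% of the counts of each candidate, so listed genes are described here, chosen after their values were seen. Ccl5 was at 1489, 4075 and 2454 CPM, with log2 ratios to 4 months of 1.45 (1.26 to 1.65) and 0.72 (0.49 to 0.95). It was also higher in the 68 cells (1.36 and 1.14) and the wider gate (1.12 and 0.93), while CD8 T cells moved by -0.21 and 0.15. Tnfsf8 had ratios of 1.32 (0.42 to 2.27) and 0.86 (-0.19 to 1.93), and 1.33 and 1.30 in the wider gate, against 0.04 and 0.15 in CD8 T cells, and 2 cells held 94.4% of its counts at 20 months. Without the highest cell of each library its ratios over the 95 cells were 0.65 (-0.46 to 1.80) and -0.99 (-3.06 to 0.71). Penk at 12 months had a ratio of 1.33 (0.80 to 1.88), 1.42 in the 68 cells, 1.27 in the wider gate and 0.76 (0.0088 to 1.53) without the highest cell of each library. Ifng had 3.23 (2.52 to 4.02), 3.58 and 1.43; at 20 months neither gene was past 1.5-fold in the wider gate (0.41 and 0.09). Klrg1 was lower at 20 months in all 3 selections (-2.48, -2.05 and -1.55), from 27 counts at 4 months and 3 at 20, all 3 of them in 1 cell.

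Costimulatory receptors were lower at 20 months in 6 of 9 cases and higher in none over the 95 cells (median log2 ratio -0.98, beside -0.08 for all genes), and in 5 of 9 in the 68 (-0.71). Tnfrsf4 was at 813, 738 and 235 CPM (-1.79 (-2.39 to -1.23) at 20 months) and Cd28 at 334, 374 and 152 CPM (-1.13 (-1.93 to -0.40)). Ctla4, an inhibitory receptor outside that list, was at 629.5, 604 and 258 CPM (-1.29 (-1.87 to -0.73)). At 4 months 1 cell held 63 of the 173 counts of Tnfrsf4, and without it the level was 528 CPM and the ratio -1.17 (-1.79 to -0.58). In the wider gate 0 of 9 costimulatory receptors were past 1.5-fold in either direction at 20 months (median -0.11). Tnfrsf4 was at 644, 915 and 774 CPM there (0.27), Cd28 at a ratio of -0.42 and Ctla4 at -0.10. Of genes of the regulatory program, 7 of 8 were lower at 20 months over the 95 cells (median -1.16), 7 of 9 in the 68 (median -0.80) and 2 of 9 in the wider gate (Il10 and Klrg1, median -0.12). Tnfrsf4, Tnfrsf9 and Tnfrsf18 are in both this list and the costimulatory one. At 12 months 5 of 6 measured helper cytokines were higher over the 95 cells (Penk, Areg, Ifng, Csf2 and Tnf, median 1.20). At 20 months 1 was higher (Tnf) and 3 were lower (Il10, Areg and Csf2, median -0.13). In the wider gate 5 of 7 were higher at 12 months (Il2 in place of Areg, median 1.27) and Il10 was lower. There 2 of 7 were higher and 3 lower at 20 months. Of the chemokines, Ccl1, Ccl3, Ccl4 and Ccl5 were higher at 12 months in both selections, with Cxcl2 lower over the 95 cells. At 20 months these 4 were higher over the 95 cells, with Xcl1, Cxcl2 and Cxcl10 lower. In the wider gate Ccl1, Ccl5 and Cxcl10 were higher at 20 months and Xcl1 was lower. Early response genes were higher in 6 of 11 cases at 12 months over the 95 cells (median 0.82) and in 3 of 10 in the wider gate (0.33), where Jun was lower. At 20 months the selections differed, with 6 higher and 1 lower over the 95 cells (median 0.61), 2 and 5 in the 68 (-0.54) and 3 and 2 in the wider gate (-0.02). Cell division genes were lower in 4 of 4 measured cases at 12 months over the 95 cells (median -0.84), against 0 of 5 lower and 1 higher in the wider gate. Inhibitory receptors were higher in 6 of 11 cases at 12 months over the 95 cells (median 0.73), among them Pdcd1 (0.74, and 0.66 in the wider gate). They were higher in 4 of 10 in the 68 cells (0.54) and in 4 of 11 in the wider gate (0.38). Genes of resting and memory cells were lower in 6 of 9 cases at 12 months in the wider gate (median -0.76). Over the 95 cells 1 of 8 was higher and 0 lower (0.34), and in the 68 cells 1 was higher and 2 lower of 8 (-0.27).

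**Figure D5:**
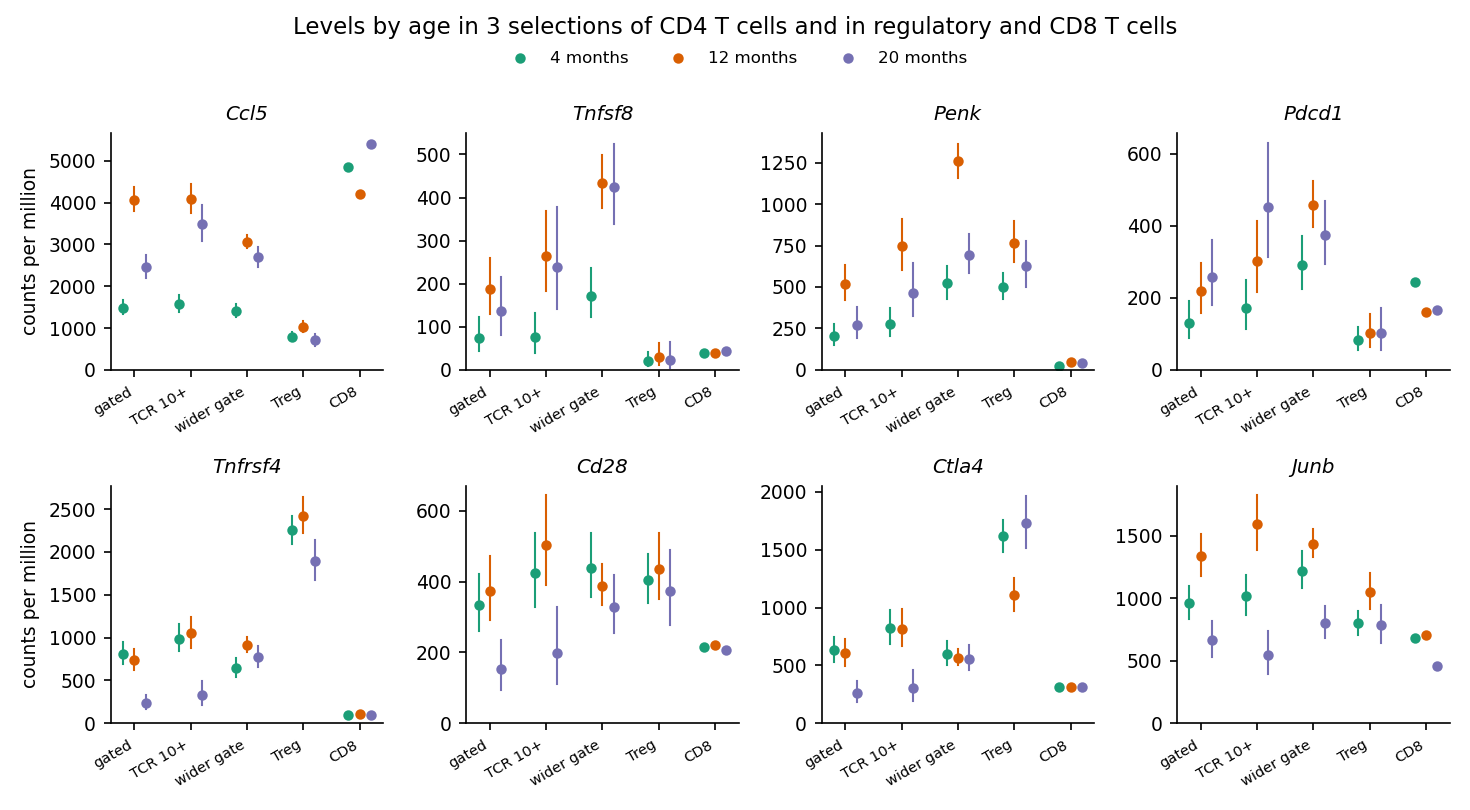
Levels of 8 genes (CPM of the summed cells, axes from 0, bars exact Poisson intervals) by library in the 95 gated cells, the cells with a T cell receptor sum of at least 10 (TCR 10+), the 145 cells of the wider gate, regulatory T cells (Treg) and CD8 T cells. Ccl5 and Tnfsf8 are lowest at 4 months in all 3 selections of conventional cells. Tnfrsf4, Cd28 and Ctla4 have low 20-month points in the first 2 selections. In the wider gate none of these 3 is 1.5-fold lower at 20 months than at 4.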

How the data were processed

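Single-cell RNA of sorted CD45+ cells was measured in 3 libraries, 1 per age. The authors deposited raw counts per gene and cell, 1 matrix per library, which hold whole numbers and no normalization; whether they count molecules or reads is not given in the sources used here. STAR 2.7.10a and GRCm38 are named in the submitters' processing notes. Of the 55401 gene identifiers, 54349 (98.1%) matched GENCODE vM21, which gave the positions.

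The libraries held 14393, 14653 and 14684 cells and 110371225, 127850782 and 119873564 counts, and the shallowest cells 3555, 4493 and 4356 counts. Cells were picked by the limits given above with no clustering, and doublets were scored with scrublet in scanpy 1.11.5 but kept. Counts were summed per library and class. Classes were compared with edgeR 4.0.16 (quasi-likelihood test, TMM scaling, library as block, filterByExpr, Benjamini-Hochberg adjustment over all tested genes, threshold 0.05) in R 4.3.3; DESeq2 1.42.0, its size factors, no filter, no block, other limits on the cells, cells thinned to 3500 counts and leaving out each library were alternatives. For genes given with age, leaving out the cell with most counts of the gene was added after the counts had been seen. For age, with 1 library each, ratios of CPM with exact intervals conditional on the summed counts (SciPy 1.17.1) were computed for genes of at least 50 CPM on average, with no test. On simulated counts with known changes the class test recovered 82 and 99 of 100 genes changed 4-fold and 8-fold against regulatory T cells, 24 and 50 against CD8 T cells, and 83 and 99 between activated and other cells. False calls were 5 of 3074, 2 of 16607 and 7 of 1290 unchanged genes. The simulated counts had the same spread for every gene and no cells that hold most counts of a gene. They therefore do not show the recovery of genes held by 1 or 2 cells.

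The members and all gene lists were chosen with earlier results of these data known. Named are listed genes and, per class comparison and direction, the 12 largest called differences at 20 CPM or more in the higher class in all 3 libraries, leaving out genes of the limits; genes named beyond this were chosen after their values were seen. A few listed genes are not reported here. Each library is 1 sample, and nothing in the labels says how the 7 mice entered it. The p-values speak only of these 3 libraries, with a spread partly shared between genes. Intervals and limits cover counting error only, and PCR duplicates were not examined.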

Additional observations from a re-analysis of the deposited data

How the results depend on the processing

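The share of gated cells among T cells was lower at 12 and at 20 months than at 4 in the alternatives tried, with 1 exception at 12 months: the wider gate gave 0.150 percentage points (-0.176 to 0.461). The 12-month interval also held 0 with at least 2 Cd4 counts (-0.0604, -0.199 to 0.0622), as a share of all cells (-0.0733, -0.195 to 0.0463) and without the cells scored highest as doublets (-0.196, -0.411 to 0.000506). At 20 months the difference was -0.0714 (-0.211 to 0.0564) with at least 2 Cd4 counts, -0.213 (-0.519 to 0.0806) in the wider gate and -0.518 (-0.842 to -0.215) with cells thinned to 3500 counts. These alternatives change which cells are counted.

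Counts of genes past 1.5-fold with age moved with the filter. With a mean of 20 CPM, 1405 were higher and 1177 lower at 12 months, and 1409 and 1520 at 20 months; with 10 counts and no other filter 1521 and 1355, then 1463 and 1770. More genes enter these alternatives by construction. With thinned cells 264 were higher and 219 lower at 12 months and 358 lower at 20 months. With at least 2 Cd4 counts 712 were lower at 12 months and 684 higher at 20 months. The wider gate gave 290 higher at 12 months. Without the 10 highest cells of each gene 1152 were lower at 12 months, and 64 were higher and 2071 lower at 20 months; this setting removes more of a small library and moves the median ratio itself.

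Against regulatory T cells (180 higher, 147 lower), DESeq2 called 47 and 43, at least 2 Cd4 counts left 31 and 44, and the wider gate gave 294 and 263; a receptor sum of at least 10 gave 98 higher, and no filter 248 lower. Against CD8 T cells (99 and 134), DESeq2 called 49 and 18, no replicate block 27 and 25, thinned cells 262 and 435, at least 2 Cd4 counts 54 and 291 and the wider gate 316 and 554; edgeR with DESeq2 size factors called 69 lower. Between activated and other cells (11 and 41), DESeq2 called 3 and 13, no replicate block 4 and 22, thinned cells 21 and 26 and the wider gate 5 and 8; no filter gave 105 lower and a receptor sum of at least 10 gave 13 lower. With at least 2 Cd4 counts edgeR called 0 higher and 2 lower there (17 higher at an unadjusted p under 0.05), from fewer cells. Leaving out 1 library, the counts ran from 78 to 143 higher and 43 to 126 lower against regulatory T cells, from 57 to 90 and 63 to 280 against CD8 T cells, and from 4 to 17 and 13 to 53 for activated cells. Beyond fewer cells or genes by construction, the cause was not tested.

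Among named genes 6 values changed sign: in the wider gate 1700016L21Rik against CD8 T cells (0.87, from 0 counts in the 95 cells) and, in activated cells, Il1b (0.46), Lyz2 (0.022) and Cdkn1a (0.085), and Cst3 in activated cells with at least 2 Cd4 counts (0.38) and a receptor sum of at least 10 (0.53). Of the other named values 593 kept their direction and call and 176 kept their direction but lost the call. No paired analysis was possible because each age has 1 library; the block within class comparisons is the library itself. Klrg1 at 20 months has no ratio without the highest cell of each library, where no count is left. Depth limits genes of a few counts: in the 95 cells, 1 count is worth 4.70, 5.35 and 7.60 CPM at 4, 12 and 20 months.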
